A study of Mus musculus with 6 samples.

Results

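The genes described here encode the machinery that takes a cell out of G1: the D cyclins *Ccnd1*, *Ccnd2* and *Ccnd3*, the kinases *Cdk4* and *Cdk6*, the CDK inhibitors *Cdkn1a*, *Cdkn1b*, *Cdkn2a* and *Cdkn2b*, and the pocket protein gene *Rb1*. They were chosen by name, and all 10 were found among the 54418 genes of the count table. RNA was sequenced from sorted mammary cells of 4-week-old C57BL/6 females, with 1 library for each of 3 Glis2+/+ and 3 Glis2-/- mice. The Glis2-/- mice are labelled as Glis2 KO and carry a germline mutation, so that the gene is affected in every cell type of the animal and not in the mammary epithelium alone. The labels give no other allele and no treatment for either genotype. Glands were dissociated overnight, and cells were stained for TER-119, CD31, CD45, CD24 and CD49f. The labels do not say which gate was collected, and the study calls the cells mammary epithelial cells. At 4 weeks the gland is at the start of pubertal growth, and the comparison of genotypes asks which transcripts differ in cells of mice mutant for GLIS2, a zinc finger transcription factor. Each library was made from 1 ng of total RNA.

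D cyclins are made in response to growth factors, hormones and adhesion, and they bind and activate CDK4 and CDK6. The active kinases phosphorylate RB1, which otherwise holds E2F transcription factors at the promoters of S-phase genes. INK4 inhibitors (CDKN2A, CDKN2B) bind CDK4 and CDK6 directly, while CIP/KIP inhibitors (CDKN1A, CDKN1B) bind complexes of cyclin and kinase and block CDK2. In the mammary gland cyclin D1 is best known for its requirement in alveolar growth during pregnancy.

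The 3 D cyclins are closely related at their amino ends, where each carries the LxCxE motif with which it docks on RB1. Their first 36 coding bases are shown because they hold this shared contact of the D cyclins with RB1, with the 15 bases of the motif in capitals (GENCODE M21 transcripts, GRCm38).
*Ccnd1*, chr7:144939658-144939693, minus strand: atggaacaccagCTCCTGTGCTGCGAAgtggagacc
*Ccnd2*, chr6:127150738-127150773, minus strand: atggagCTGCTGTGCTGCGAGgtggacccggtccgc
*Ccnd3*, chr17:47593655-47593690, plus strand: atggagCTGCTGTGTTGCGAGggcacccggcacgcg
The motif starts at codon 5 in *Ccnd1* and at codon 3 in *Ccnd2* and *Ccnd3*. Over the whole coding sequence, identity was 70.2% between *Ccnd1* and *Ccnd2*, 66.3% between *Ccnd1* and *Ccnd3* and 68.8% between *Ccnd2* and *Ccnd3*. The longest identical run was 20 bases, ttcaagtgcgtgcagaagga, shared by *Ccnd1* and *Ccnd2*. No sequence of 31 bases was shared between transcripts of any 2 of the 10 genes, so a stretch of that length names 1 family member. With genes outside the family, *Ccnd3* shared 4.32% of its 31-base sequences, most of them with its pseudogene *Ccnd3-ps*, and *Cdkn1a* shared 3.24%, *Cdk6* 2.64% and *Cdk4* 2.63%. For the other 6 genes this share was at most 0.0437%.

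All 10 genes are annotated as protein-coding. *Ccnd1* (ENSMUSG00000070348) spans chr7:144929931-144939925, *Ccnd2* (ENSMUSG00000000184) chr6:127125162-127152193 and *Ccnd3* (ENSMUSG00000034165) chr17:47505051-47599691. *Cdk4* (ENSMUSG00000006728) lies at chr10:127063534-127067920 and *Cdk6* (ENSMUSG00000040274) at chr5:3341485-3531008. *Cdkn1a* (ENSMUSG00000023067) is at chr17:29090976-29100727 and *Cdkn1b* (ENSMUSG00000003031) at chr6:134920401-134925513. The INK4 genes neighbour each other, *Cdkn2a* (ENSMUSG00000044303) at chr4:89274471-89294653 and *Cdkn2b* (ENSMUSG00000073802) at chr4:89306299-89311039, and *Rb1* (ENSMUSG00000022105) spans chr14:73183673-73325822. On the opposite strand *Ccnd1* overlaps *LTO1*, *Ccnd3* overlaps *Bysl*, *Cdk4* overlaps *Tspan31*, and *Rb1* overlaps *Lpar6* and *Rcbtb2*. The library kit keeps strand, but the strand setting of the quantification is not given in the sources used here, so reads of such partners cannot be told apart with certainty.

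Total counts lay between 24996524 and 31393917 per library. Reads of *Glis2* itself numbered 671, 663 and 510 in Glis2+/+ and 252, 509 and 510 in Glis2-/-, so its transcript was not absent from the libraries labelled KO. Per library size its log2 difference was -0.57, without overlap (standard error 0.22), with edgeR giving an adjusted p of 0.906, while its TPM overlapped between the genotypes (2.08 to 4.19 and 2.75 to 3.17). Counts were scaled to library size by TMM normalization (CPM) and compared with edgeR's quasi-likelihood test over 21236 genes, with p-values adjusted over all of them by the Benjamini-Hochberg method. Calls needed an adjusted p no higher than 0.05 together with a log2 fold change of 0.58 or more in size. Fold changes are given as Glis2-/- over Glis2+/+. Nothing in the labels says that the mice come from separate litters or days, so p-values measure only the spread between these libraries.

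None of the 10 genes was called, and neither was any other gene (0% of 21236). All 10 passed the filter on low counts, 5 had a fold change above 0 and 5 below 0 on the log2 scale, and their median was 0.03 beside 0.01 for all genes tested. In this fit none of the 10 had an unadjusted p under 0.05, which 5.32% of all genes had, and DESeq2 called none of them and 0.167% of all genes it tested. The genotypes did not overlap in 1 of the 10 genes, *Ccnd1*, which was higher by CPM in Glis2-/-, against 11.7% of all genes tested and 6.23% in this direction. By TPM *Ccnd1* overlapped, and the genotypes did not overlap in 2 of the 10 genes, *Cdk6* and *Cdkn1a*, both lower in Glis2-/-, against 13.1% of all genes tested and 10.6% in this direction. The plot of levels by library shows that for most of these genes the mice of one genotype were spread across the range of the other.

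**Figure D1:**
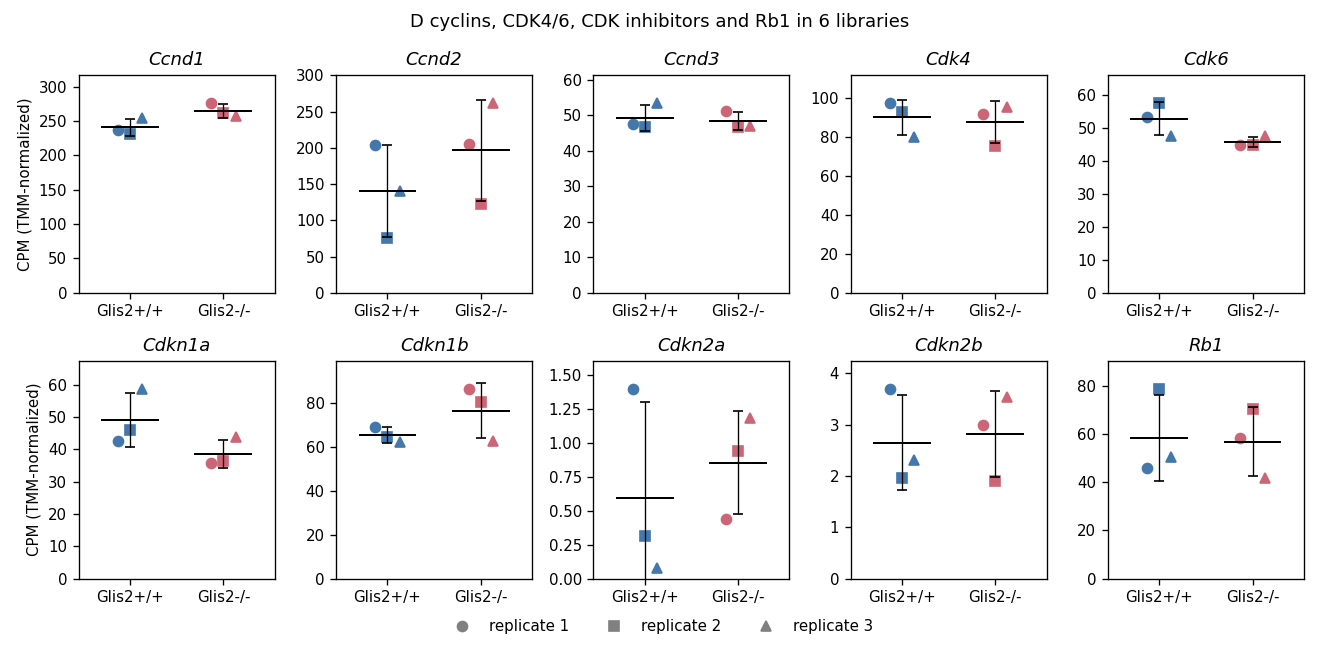
TMM-normalized CPM (vertical axes, from 0) of the 10 genes in 3 Glis2+/+ and 3 Glis2-/- libraries, with the mean as a line and the SD as bars, cut at 0 for *Cdkn2a*. Marker shapes are replicate numbers, which name mice, and the labels give no pairing. *Ccnd1* is the gene in which the genotypes do not overlap on this scale, and *Ccnd2* is spread from 76.3 to 261.6 CPM.

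Per unit length, *Cdk4* and *Ccnd1* were the most abundant transcripts of the family. The TPM, a level corrected for transcript length, of *Cdk4* lay between 15.7 and 22.5 and that of *Ccnd1* between 16.2 and 21.1, and the pair held places 1 and 2 in all 6 libraries. *Ccnd3* held place 3 or 4 (7.10 to 14.7 TPM). *Ccnd2* took places from 3 to 7 (4.59 to 10.4 TPM) and thus had no fixed place. *Cdkn1a* (4.70 to 9.01 TPM) and *Cdkn1b* (4.13 to 6.64 TPM) took places 4 to 6 and exchanged them between libraries. *Rb1* (2.36 to 6.79 TPM) and *Cdk6* (2.49 to 3.34 TPM) overlapped as well. The INK4 genes were last in every library, *Cdkn2b* at 0.299 to 0.650 TPM and *Cdkn2a* at 0.0269 to 0.418 TPM. *Cdk4* stood above its partner *Cdk6* by a TPM ratio of 6.09 to 6.52 in Glis2+/+ and of 6.28 to 8.05 in Glis2-/- libraries.

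*Ccnd1* was the main D cyclin in these cells by TPM. It made up 53.1% ± 6.04 (SD, n = 3) of the summed TPM of the 3 D cyclins in Glis2+/+ and 50.5% ± 2.64 (SD, n = 3) in Glis2-/- libraries. *Ccnd2* made up 20.5% ± 5.74 and 24.0% ± 8.11 (SD, n = 3 each), and *Ccnd3* 26.4% ± 6.10 and 25.5% ± 5.53 (SD, n = 3 each). The genotype means of each share differed by less than 1 SD of the libraries. In single libraries the share of *Ccnd2* ran from 15.0% in Glis2+/+ replicate 2 and Glis2-/- replicate 2 to 30.8% in Glis2-/- replicate 3. The shares depend on the correction for length. By CPM, which is not corrected, *Ccnd3* made up 11.6% and 9.61%, and in Glis2-/- replicate 3 *Ccnd2* (46.2%) was above *Ccnd1* (45.5%).

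**Figure D2:**
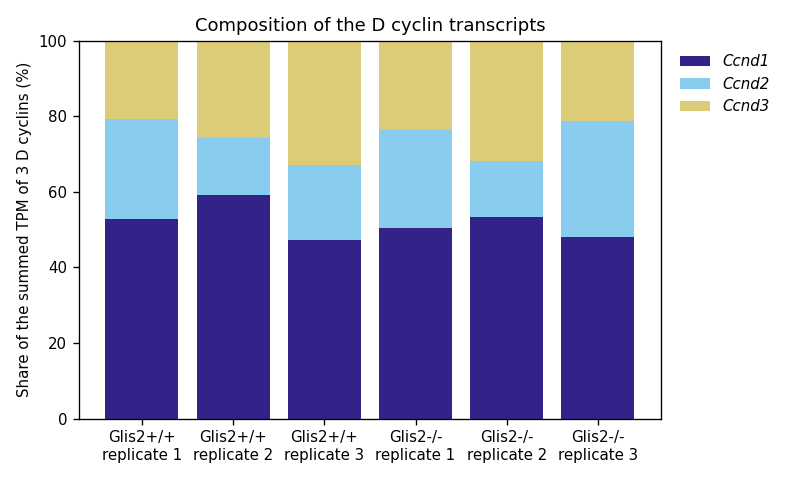
Share of each D cyclin in the summed TPM of the 3 D cyclins (vertical axis, percent) in each of the 6 libraries. *Ccnd1* makes up 47.1% to 59.2% of every bar, and the *Ccnd2* part is smallest in replicate 2 of both genotypes.

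*Ccnd1* had 236.5, 232.0 and 254.7 CPM in the Glis2+/+ libraries and 276.1, 261.3 and 257.4 CPM in the Glis2-/- libraries. Every Glis2-/- library was above every Glis2+/+ library, by a small margin. The log2 fold change was 0.14 (standard error 0.09, 95% interval -0.06 to 0.34), with an adjusted p of 0.940 from edgeR. A two-sided exact permutation test gave p = 0.1, the lowest value possible with 3 mice in each group. The interval leaves out a difference of 0.58 on the log2 scale in either direction. On the TPM scale the genotypes overlapped. The log2 fold change was -0.15 with log2(TPM + 1) in limma, where the median of all genes was -0.06. Relative to that median it was -0.08, so no direction is given for *Ccnd1*.

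*Ccnd2* was the most variable of the D cyclins. It had 203.5, 76.3 and 140.1 CPM in the Glis2+/+ libraries and 205.7, 122.1 and 261.6 CPM in the Glis2-/- libraries. The lowest library of each genotype was replicate 2, and the genotypes overlapped widely. The coefficient of variation between mice was 45.5% in Glis2+/+ and 35.7% in Glis2-/-, where that of *Ccnd1* was 5.01% and 3.72%. The log2 fold change was 0.49 (standard error 0.36, 95% interval -0.34 to 1.31), with an adjusted p of 0.941 from edgeR. Leaving out Glis2+/+ replicate 2 or Glis2-/- replicate 3 lowered it to 0.19 and 0.21, and leaving out Glis2+/+ replicate 1 or Glis2-/- replicate 2 raised it to 0.85 and 0.74. On the TPM scale in limma it was 0.10 with log2(TPM + 1) and 0.11 with log2(TPM + 0.1), or 0.17 and 0.25 relative to the median of all genes.

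The libraries low in *Ccnd2* were also low in stromal and endothelial transcripts. The 4 endothelial markers (*Pecam1*, *Cdh5*, *Kdr*, *Emcn*) summed to 96.1 to 546.7 CPM in Glis2+/+ and to 155.1 to 575.2 CPM in Glis2-/- libraries, and the 7 fibroblast and stromal markers to 2327 to 7787 CPM and 2612 to 5951 CPM. None of these 11 markers was at 0 in any library. *Pecam1*, which encodes the CD31 used for staining, stood at 44.6 to 198.3 CPM. The 2 libraries lowest in *Ccnd2*, replicate 2 of each genotype, were also the 2 lowest in both marker sums and the 2 highest in the summed epithelial markers *Epcam*, *Cdh1*, *Krt8* and *Krt18*. The library highest in *Ccnd2*, Glis2-/- replicate 3, was the highest in endothelial markers and the lowest in epithelial markers, but at place 3 in stromal markers. Glis2+/+ replicate 3, the highest in stromal markers, was at place 4 in *Ccnd2*. The part of these markers' cells in the level of *Ccnd2* was not tested in separated cells, and in bulk RNA fewer cells of a type cannot be told apart from less RNA per cell.

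A fit was made with a covariate chosen after the values were seen. It was the average of the mean log2 CPM of the stromal list and that of the endothelial list. This fit left the fold change of *Ccnd2* at 0.51 on the log2 scale and lowered its standard error to 0.11. Its biological coefficient of variation went from 31.6% to 10.9%. The unadjusted p was 8.1e-04 and the adjusted p from edgeR was 0.175, so *Ccnd2* was not called in this fit either. *Cdkn1a* stood at -0.35 on the log2 scale (standard error 0.14), with an unadjusted p of 0.0352 and an adjusted p of 0.515 from edgeR. In the same fit the log2 difference was 0.14 for *Ccnd1* (standard error 0.08) and -0.03 for *Ccnd3* (standard error 0.11).

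*Ccnd3* had 47.7, 46.7 and 53.5 CPM in the Glis2+/+ and 51.4, 46.8 and 47.1 CPM in the Glis2-/- libraries. Its difference between genotypes was the smallest of the 10 genes, -0.03 on the log2 scale (standard error 0.11, 95% interval -0.28 to 0.23), with an adjusted p of 0.991 from edgeR. Its TPM was less steady than its CPM, at 7.10, 7.89 and 14.7 in Glis2+/+ and 8.71, 9.95 and 7.19 in Glis2-/- libraries. Counts per TPM, which follow the length of the transcripts that the reads were assigned to, differed 1.60-fold between libraries for *Ccnd3* after scaling to each library's median, where the typical gene differed 1.24-fold. This difference put *Ccnd3* at percentile 80.4 of the 12130 genes with a mean of at least 5 CPM, and *Rb1* differed 1.54-fold. For *Ccnd3*, counts per TPM were lowest in Glis2+/+ replicate 3 and Glis2-/- replicate 2.

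Among the kinases, *Cdk4* had 97.1, 92.4 and 79.9 CPM in Glis2+/+ and 91.7, 75.1 and 95.3 CPM in Glis2-/- libraries. The genotypes overlapped, and the difference on the log2 scale was -0.04 (standard error 0.13, 95% interval -0.34 to 0.25), with an adjusted p of 0.985 in edgeR. *Cdk6* had 53.3, 57.6 and 47.6 CPM in Glis2+/+ and 45.0, 44.9 and 47.7 CPM in Glis2-/- libraries. The genotypes touched at replicate 3, which was 47.63 CPM in Glis2+/+ and 47.68 CPM in Glis2-/-. For *Cdk6* the log2 fold change was -0.20 (standard error 0.12, 95% interval -0.47 to 0.06), with an adjusted p of 0.924 from edgeR. It was below 0 in each of the 14 alternatives run, from -0.27 to -0.14.

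Of the CIP/KIP inhibitors, *Cdkn1a* encodes p21, a target of p53, and *Cdkn1b* encodes p27. *Cdkn1a* had 42.6, 46.0 and 58.7 CPM in Glis2+/+ and 35.6, 36.5 and 43.7 CPM in Glis2-/- libraries. The highest Glis2-/- library lay above the lowest Glis2+/+ library. Its log2 fold change of -0.35 (standard error 0.16, 95% interval -0.70 to 0.01) had the smallest unadjusted p of the 10 genes, 0.0547, and an adjusted p of 0.906 from edgeR. It was below 0 in each of the 14 alternatives, the extremes being -0.46 when Glis2-/- replicate 3 was left out and -0.20 when Glis2+/+ replicate 3 was. *Trp53* and *Mdm2*, the p53 gene and another p53 target, had log2 fold changes of 0.15 each (standard errors 0.12 and 0.10).

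*Cdkn1b* had 69.4, 64.7 and 62.2 CPM in Glis2+/+ and 86.6, 80.8 and 62.7 CPM in Glis2-/- libraries. Glis2-/- replicates 1 and 2 were above all Glis2+/+ libraries and replicate 3 was among them. On the log2 scale the difference was 0.23 (standard error 0.14, 95% interval -0.09 to 0.54), with an adjusted p of 0.933 from edgeR. Without Glis2-/- replicate 1 it was 0.13 and without Glis2-/- replicate 3 it was 0.34. With log2(TPM + 1) in limma it was -0.05, where the median of all genes was -0.06, and relative to that median it was 0.01. The TPM of *Cdkn1b* relative to that of *Cdkn1a* was 0.903, 0.927 and 0.626 in Glis2+/+ and 1.28, 1.12 and 0.800 in Glis2-/- libraries, with overlap between the genotypes.

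The INK4 genes were the least abundant of the family. *Cdkn2b*, which encodes p15, was counted 114, 56 and 60 times in Glis2+/+ and 75, 57 and 111 times in Glis2-/-, a log2 difference of 0.08 (standard error 0.42) with an adjusted p of 0.992 in edgeR. *Cdkn2a*, whose alternative first exons give p16 and p19ARF, was counted 43, 9 and 2 times in Glis2+/+ and 11, 28 and 37 times in Glis2-/-. Neither genotype was uniformly high: Glis2+/+ held the highest and the lowest library. Its fold change of 0.51 on the log2 scale had a standard error of 0.99 and a 95% interval from -1.74 to 2.76 (adjusted p = 0.977 from edgeR), at a biological coefficient of variation of 80.9%, so the data set no narrow limit on the difference in either direction. The gene-level counts sum both products of *Cdkn2a*. Both genes were highest in Glis2+/+ replicate 1 and next in Glis2-/- replicate 3, the 2 libraries lowest in epithelial markers.

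*Rb1*, the substrate of the D cyclin kinases, had 45.8, 78.7 and 50.4 CPM in Glis2+/+ and 58.4, 70.4 and 41.9 CPM in Glis2-/- libraries. Replicate 2 was the highest of each genotype, the reverse of *Ccnd2*. Between genotypes the log2 difference was -0.04 (standard error 0.24, 95% interval -0.59 to 0.52, adjusted p = 0.996 in edgeR), and it moved to 0.24 without Glis2+/+ replicate 2 and to -0.23 without Glis2-/- replicate 2. The order of the 6 libraries by *Rb1* was that of the 4 summed epithelial markers, which lay between 2748 and 4697 CPM in Glis2+/+ and between 2688 and 4625 CPM in Glis2-/-, and that of the 5 luminal progenitor markers (230.6 to 652.9 CPM and 192.0 to 632.4 CPM). None of these markers was at 0 in any library. Whether *Rb1* differs between the cell types was not tested. With the stromal and endothelial covariate its biological coefficient of variation went from 22.6% to 10.7%, and its log2 fold change was -0.01 (standard error 0.11).

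**Figure D3:**
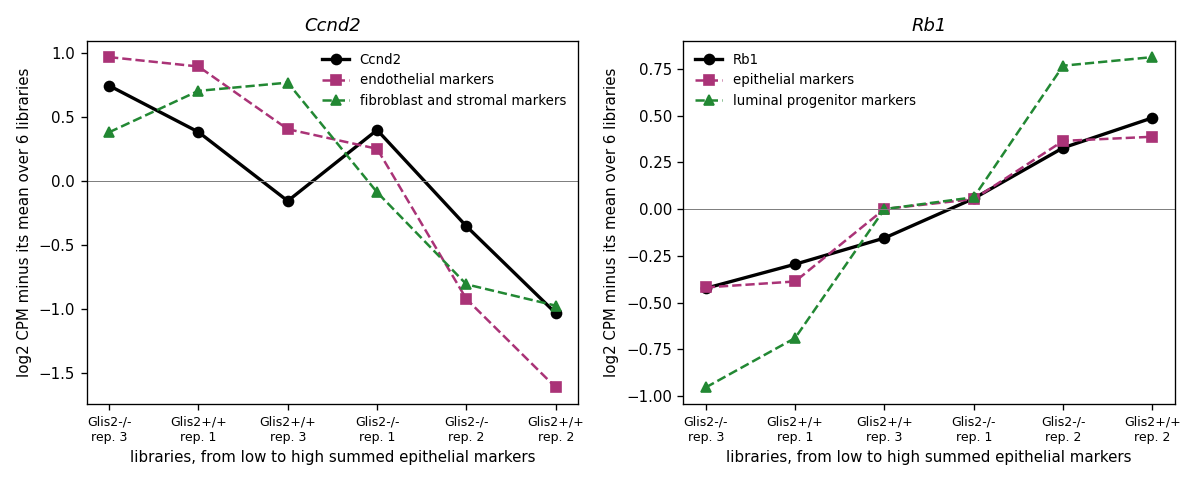
Log2 CPM of *Ccnd2* (left) and *Rb1* (right) in each library minus the mean over 6 libraries (vertical axes), beside the summed CPM of marker lists on the same scale, with libraries ordered from low to high summed epithelial markers. *Ccnd2* is lowest in the 2 libraries at the right, in which stromal and endothelial markers are lowest, while *Rb1* goes up from left to right with the epithelial and luminal progenitor markers.

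**Figure D4:**
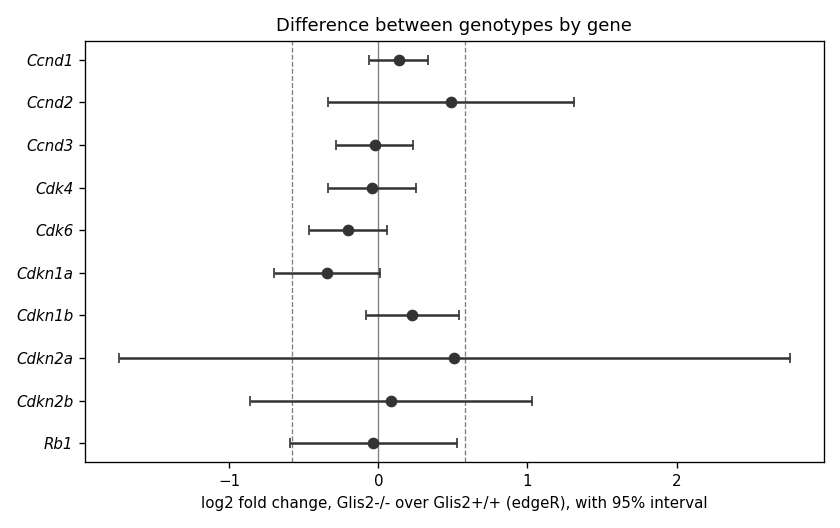
Log2 fold change of each gene, Glis2-/- over Glis2+/+ (horizontal axis), with its 95% interval from edgeR. The dashed lines mark 0.58 in either direction. All 10 intervals include 0, and those of *Ccnd1*, *Ccnd3*, *Cdk4*, *Cdk6* and *Cdkn1b* lie within the dashed lines.

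The genes whose levels ran most like those of each D cyclin over the 6 libraries were taken from 11186 protein-coding genes with a mean of at least 5 CPM. For *Ccnd1* they were *Lsm1*, *Zfp397* and *Guk1* (Pearson's r of log2 CPM 0.992, 0.987 and 0.980). For *Ccnd2* they were *Ctla2a*, *Gramd1b* and *Pxdn* (0.997, 0.996 and 0.993). *Ctla2a* ran from 0.98 CPM in Glis2+/+ replicate 2 to 16.6 CPM in Glis2-/- replicate 3, the same lowest and highest libraries as *Ccnd2*. For *Ccnd3* they were *Yme1l1*, *Tgfbrap1* and *Arhgap39* (0.979 each). These values describe 6 libraries that differ in the levels of cell type markers, and the highest of so many correlations over 6 points is high by selection.

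Downstream of the family, E2F target and cell cycle genes stood lower in the Glis2-/- libraries, with none called. All 22 genes of this list were below 0 on the log2 scale (-0.61 to -0.07), with a median of -0.48 beside 0.01 for all genes tested. An unadjusted p under 0.05 was found for 13 of them, against 2.33% of all genes tested in this direction, and 12 were below the Glis2+/+ libraries in all 3 Glis2-/- libraries, against 5.5% of all genes. The list was chosen with earlier results of these data known. Its 22 genes were measured in the same 6 libraries, so these counts are a description and not separate observations. The genes with the smallest p were the replication helicase subunits *Mcm4*, *Mcm5* and *Mcm6*. *Mcm4* stood at 118.6 ± 7.63 CPM in Glis2+/+ and 81.9 ± 10.7 CPM in Glis2-/- (SD, n = 3 each), *Mcm5* at 76.4 ± 3.42 and 51.7 ± 7.98 CPM, and *Mcm6* at 146.3 ± 22.1 and 102.9 ± 4.31 CPM. Their log2 fold changes were -0.53, -0.56 and -0.51, with an adjusted p of 0.906 each from edgeR. The summed CPM of the list was 1811 to 2450 in Glis2+/+ and 1331 to 1690 in Glis2-/- libraries.

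E2F factors themselves were mixed. Of 10 E2F and DP genes, 4 were above and 6 below 0 on the log2 scale (median -0.12), and none was called. The repressive members *E2f8* and *E2f7* had log2 fold changes of -0.77 (standard error 0.28) and -0.64 (standard error 0.24), with adjusted p = 0.906 for both in edgeR, while *Tfdp2*, a dimer partner of E2F factors, had 0.29 (standard error 0.14). *E2f8* was 27.1 ± 5.58 CPM in Glis2+/+ and 15.9 ± 5.65 CPM in Glis2-/- libraries (SD, n = 3 each). Among the 14 other partners in the step from G1 to S phase, 7 were above and 7 below 0 (median -0.01), and none was called. *Rbl1*, the pocket protein p107 and a relative of *Rb1*, had 44.6 ± 3.16 CPM in Glis2+/+ and 34.5 ± 3.21 CPM in Glis2-/- (SD, n = 3 each), without overlap, the log2 difference being -0.37 (standard error 0.13) with an adjusted p of 0.906 in edgeR. *Ccne1*, the cyclin that activates CDK2, had -0.77 (standard error 0.33) and *Cdk7*, the kinase that activates CDKs, 0.43 (standard error 0.19), and edgeR gave adjusted p = 0.906 for both. Of 16 genes that regulate the transcription or turnover of the family, 12 were above and 4 below 0, between -0.19 and 0.29, with none called and none at an unadjusted p under 0.05. *Ambra1*, a ubiquitin ligase receptor for D cyclins, stood at 0.14 on the log2 scale (standard error 0.11).

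**Figure D5:**
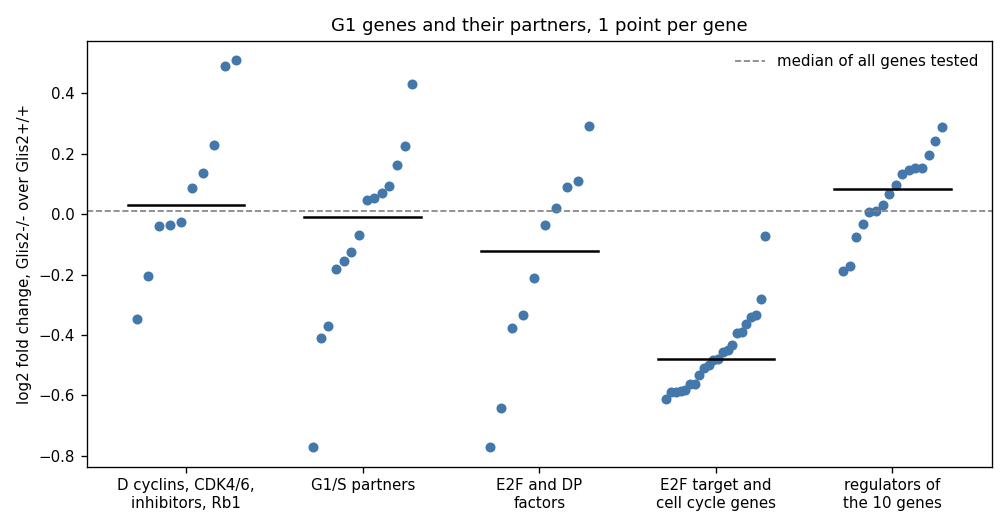
Log2 fold change of each gene (vertical axis, 1 point per gene), Glis2-/- over Glis2+/+, for the 10 genes and 4 lists of partners, with the list's median as a bar and the median of all genes tested as a dashed line. All 22 E2F target and cell cycle genes lie below 0, while the 10 D cyclin, kinase, inhibitor and *Rb1* genes lie on both sides.

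Promoters were searched for E2F sites. The letters TTTCGCGC and TTTGGCGC, 2 forms of the E2F site, were searched on both strands of RefSeq promoter windows of GRCm38 (250 bases before to 50 after the start). They were found in 0.929% of 27025 genes, in 6 of 18 E2F target and cell cycle genes with a window (33.3%), in 2 of 11 partners in the step from G1 to S phase, in 2 of 8 E2F and DP genes and in 1 of 12 regulators. No test was made of these shares. Windows were searched for *Ccnd3*, *Cdk4*, *Cdk6*, *Cdkn1a*, *Cdkn1b*, *Cdkn2a* and *Cdkn2b*, and none of these 7 genes held the letters, which says only that they are not in these windows. *Ccnd1*, *Ccnd2* and *Rb1* were not searched. The named genes *Mcm4*, *E2f7*, *E2f8* and *Ccne1*, also below 0 on the log2 scale, are not among the genes with a match. How a match relates to the fold change was not tested. The sites of the genes named above that hold one are shown as examples, with the motif in capitals.
*Rbl1*, chr2:157204534-157204563, minus strand: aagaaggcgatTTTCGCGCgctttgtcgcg
*Mcm5*, chr8:75109345-75109374, plus strand: gcgccaagaacTTTCGCGCcaaaacgtcca
*Mcm6*, chr1:128359797-128359826, minus strand: tggcgtatgctTTTGGCGCgaaaagtgcgt
In *Mcm5* and *Mcm6* the site in capitals overlaps a match on the other strand. A match is a description of the sequence, and binding was not measured here.

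The marker sum of basal cells did not overlap between genotypes, beside these values. The 8 basal markers, among them *Krt14*, *Acta2* and *Trp63*, summed to 4108 to 5263 CPM in Glis2+/+ and to 5589 to 6726 CPM in Glis2-/- libraries, without overlap. All 8 were above 0 on the log2 scale, 6 of them at an unadjusted p under 0.05 (2.99% of all genes in this direction), and none was called in edgeR. Taken singly, 3 of the 8 did not overlap (6.23% of all genes in this direction), while *Krt14*, *Acta2* and *Trp63* overlapped. The keratins *Krt14* and *Krt5* had unadjusted p of 0.0657 and 0.525 in edgeR. The largest parts of the sum were *Myh11* (means 1964 and 2375 CPM) and *Acta2* (1242 and 1647 CPM). The 5 immune markers *Ptprc*, *Cd68*, *Adgre1*, *Cd3e* and *Cd74* were mixed. *Ptprc* and *Cd74* were above the Glis2+/+ range in all Glis2-/- libraries (log2 fold changes 1.25 and 1.24), and *Cd74* was called by DESeq2 (adjusted p = 0.0436) but not by edgeR (adjusted p = 0.906). *Cd3e* overlapped, and the macrophage markers *Cd68* and *Adgre1* had log2 fold changes of -0.19 and -1.56, neither of them called. The 5 markers summed to 21.1 to 44.7 CPM in Glis2+/+ and to 47.4 to 99.3 CPM in Glis2-/- libraries, and without *Cd74* the sums overlapped (11.2 to 20.3 CPM and 18.9 to 47.2 CPM). Sums of the 6 hormone-sensing luminal markers (1117 to 1905 CPM and 1048 to 2011 CPM), the 4 adipocyte markers (52.3 to 307.6 CPM and 94.8 to 262.2 CPM), the 3 skeletal muscle markers (3.68 to 33.7 CPM and 6.63 to 10.1 CPM) and the 3 red blood cell markers (2.91 to 8.07 CPM and 4.74 to 14.0 CPM) overlapped. *Fabp4* made up most of the adipocyte sum. Of the other adipocyte markers, *Adipoq* had a log2 fold change of -2.16, with every Glis2-/- library below the Glis2+/+ libraries, *Plin1* had -1.37, and *Lep* 0.86, with none called, and *Adipoq* and *Lep* were each at 0 in at least 1 library. The part of basal cells and of immune markers in the values of the E2F target genes was not tested.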

How the data were processed

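Sorted mammary cells of 3 Glis2+/+ and 3 Glis2-/- mice were profiled by RNA sequencing. The authors ran Salmon 1.2.1 against mm10 transcripts, using genomic sequence as decoy, and collected gene values with tximport. The deposited estimated counts are whole numbers without normalization. The deposited log2 values are log2(TPM + 1), as the authors transformed them, and were converted back to TPM. Symbols were found for 54096 of 54418 genes, and positions were taken from GENCODE M21 (GRCm38, the build of mm10), an earlier annotation than the authors'.

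The test was edgeR 4.0.16 in R 4.3.3 (filterByExpr, TMM, quasi-likelihood). The standard error is the fold change divided by the root of the F statistic. Alternatives were DESeq2 1.42.0 with apeglm 1.24.0, its size factors in edgeR, other filters, limma 3.58.1 on log2 TPM values, a replicate block, no fold threshold and leaving out each mouse. Functions were tested on simulated data. The genes, lists and comparisons were chosen with earlier results of these data known, and the covariate for stromal markers after the values were seen. Genes named from the 4 pathway lists are the 3 with the smallest p in each, while markers are named as examples or for their values. No library was a copy of another (chi-square per degree of freedom at least 20.3). A gene of the immune marker list is not reported here, and the sum of that list leaves it out.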

Additional observations from a re-analysis of the deposited data

How the results depend on the processing

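No alternative called any of the 10 genes. The count over all genes was 0 in edgeR (1130 at an unadjusted p under 0.05), 45 with DESeq2 and apeglm, 40 without a filter on low counts, 1 with log2(TPM + 0.1) in limma and 17 with the stromal and endothelial covariate, which was chosen after seeing the data. It was 0 without each mouse in turn. The replicate block also gave 0 genes and 0 of the 10. The labels give no pairing of the mice. The correlations of same-numbered deviations were -0.02, 0.13 and 0.01. They cannot decide whether the mice are paired, since differently numbered mice were not compared.

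In limma on log2(TPM + 1), values turned to -0.148 for *Ccnd1*, -0.0505 for *Cdkn1b* and -0.0217 for *Cdkn2b*, and on log2(TPM + 0.1) to -0.156, -0.0620 and -0.0654. The median of all genes was -0.14 on the latter scale, and relative to it these 3 genes stood at -0.02, 0.08 and 0.07 (on log2(TPM + 1), at -0.08, 0.01 and 0.04). Without 1 mouse, the direction turned for *Cdk4* (-0.123 to 0.0515), *Ccnd3* (-0.0731 to 0.0364), *Cdkn2a* (-0.00167 to 2.08), *Cdkn2b* (-0.133 to 0.385) and *Rb1* (-0.228 to 0.244). *Ccnd2*, *Cdk6* and *Cdkn1a* kept their direction in all 14 alternatives, although *Ccnd2* went from 0.49 to 0.101 with log2(TPM + 1) and 0.112 with log2(TPM + 0.1) (0.17 and 0.25 relative to the median of all genes). By CPM instead of TPM, which counts longer transcripts more, the mean share of *Ccnd2* among the D cyclins was 31.5% in Glis2+/+ and 37.7% in Glis2-/-, and that of *Ccnd3* 11.6% and 9.61%. Counts per TPM, scaled to each library's median, were 2.19 to 2.82 for *Ccnd2* and 0.510 to 0.814 for *Ccnd3*. The cause of the differences in fold change between CPM and TPM was not tested. *Cdkn2a* could not be fitted with at least 10 counts in every library. *Cdkn2a* had as few as 2 counts in a library, and its spread between mice was wide.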
